A study of Bos grunniens with 6 samples.

Results

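The genes described here are the cell cycle control and mitosis genes of cultured yak (Bos grunniens) hair follicle cells. They are the rows of the deposited expression table whose pathway annotation names the cell cycle, plus TOP2A, the topoisomerase that untangles sister chromosomes. Rows that the annotation also places in DNA replication or in the Wnt, TGF-beta or ErbB pathways were left out, as were p21 (listed as CIP1), MDM2 and CDKN2B. Of 121 annotated rows 35 were left out, which gave 87 members among the 15646 genes of the table. The rule itself uses no expression value, but the members were chosen with earlier results of these data known.

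The study compared dermal papilla cells (DPC, 3 libraries) with hair matrix cells (HMC, 3 libraries) by mRNA sequencing. Both cell types were isolated from yak skin, are labelled wild type, and were grown in the same DMEM/F12 medium with fetal bovine serum, penicillin-streptomycin and the growth factors IGF1 and EGF. Dermal papilla cells form the mesenchymal core of the hair bulb, and hair matrix cells are the epithelial cells around that core that build the hair shaft. The libraries of a group are labelled biological replicates, but the labels do not say whether they came from separate animals or cultures, so p-values measure only the spread between these libraries.

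Cells pass from G1 into S phase when cyclin-dependent kinases (CDKs) phosphorylate the RB1 protein and release E2F transcription factors. A rise of CDK1 with its cyclins then starts mitosis, and the anaphase-promoting complex (APC/C) ends it by marking cyclins and securin for destruction once every chromosome is attached to the spindle. In the growing follicle the matrix is the fast-dividing compartment and the papilla divides little, whereas in culture with serum both cell types are made to proliferate.

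Levels are given in FPKM, fragments per kilobase of transcript and per mega (M) of mapped fragments, which allows levels of different genes to be compared per length. Differences are DPC minus HMC on the scale of log2(FPKM + 1), with their standard error (SE), and are called log2 differences below. A gene passed the test when its adjusted p from limma was under 0.05 over all 11883 genes whose mean reached 0.5 FPKM. The reads recovered from the steps of the FPKM values came to at least 13.1 M (M, mega) in each library. The labels matched the markers of both cell types, with 5 of 5 papilla markers (VIM, COL1A1, TWIST1, VCAN, ITGA8) higher in every DPC library than in any HMC library and 5 of 5 epithelial markers (KRT8, KRT5, KRT18, CDH1, ITGA6) higher in every HMC library. The summed papilla markers in HMC replicates 1, 2 and 3 came to 3.99%, 3.89% and 4.74% of their DPC mean. Most of that HMC sum was VIM, which averaged 384 FPKM there, against 62.4 FPKM for COL1A1 and 2.90 FPKM for TWIST1. KRT5 averaged 38.1 FPKM in DPC libraries and 1083 FPKM in HMC libraries. Of the melanocyte markers, EDNRB and SOX10 together held 0.230 to 0.372 FPKM in DPC and 63.9 to 69.5 FPKM in HMC. Most of the HMC sum was EDNRB, which averaged 64.7 FPKM there, against 1.42 FPKM for SOX10, and the listed marker DCT was not found. The endothelial markers PECAM1, CDH5 and VWF together stayed between 0.0475 and 0.114 FPKM in DPC and between 1.08 and 1.18 FPKM in HMC. In HMC libraries VWF averaged 1.08 FPKM, PECAM1 0.0347 FPKM and CDH5 0.0199 FPKM. The immune markers CD14 and LAPTM5 together held 11.8 to 12.2 FPKM in DPC and 8.57 to 12.0 FPKM in HMC, but they separated the groups in opposite directions. CD14 averaged 2.47 FPKM in DPC libraries and 10.1 FPKM in HMC libraries, and LAPTM5 averaged 9.46 FPKM in DPC libraries and 0.257 FPKM in HMC libraries. For the Schwann markers S100B and SOX10 the sums were 5.90 to 8.96 FPKM in DPC and 5.17 to 5.99 FPKM in HMC, with SOX10 at 0 in all 3 DPC libraries. The part of these other cells in the differences below was not tested. In bulk libraries such as these, fewer dividing cells and less RNA of a cell cycle gene per dividing cell cannot be told apart.

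Cell cycle genes split between the cell types. The cultured papilla cells held more RNA of the CDK4 and CDK2 kinases, of the transcription factor E2F1, of the ubiquitin ligase subunit SKP2, of TOP2A and of most cohesin and origin-firing genes. The matrix cells held more RNA of CDK6, of CDC25B, a phosphatase that activates CDKs, and, as deposited, of most 14-3-3 adaptor genes. After quantile normalization the 14-3-3 rows called higher in HMC were YWHAZ and the 4 YWHAQ rows, which may share reads. CDK1, the kinase of mitotic entry, and CDC20, the APC/C activator of early mitosis, did not pass as deposited. Of the 83 members tested, 38 were higher in DPC, 21 were higher in HMC and 24 did not pass. In all, 75.9% of the genes tested passed in either direction. Among all genes tested, 29.7% were higher in DPC and 46.2% were higher in HMC, against 45.8% and 25.3% of the tested members. With a change of at least 2-fold added to the test, 5 of the 83 tested members were higher in DPC and 5 were higher in HMC. Both are smaller shares than the background of 11.0% and 16.1% of all genes tested. The libraries did not overlap for 41 of the 83 tested members with DPC above and 22 with HMC above, and overlapped for 20. Over all genes tested, 77.9% did not overlap, 30.8% with DPC above and 47.1% with HMC above.

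The median log2 difference of the tested members was 0.14, and that of all genes tested was -0.15. FPKM does not correct for differences in RNA composition, and the balance of calls depended on scaling. DPC held 64.4% of the members' calls as deposited. Median-of-ratios rescaling raised that share to 75.8% (47 members higher in DPC and 15 in HMC) and quantile normalization to 79.7% (51 and 13). The same rescalings moved the median of all genes to -0.02 and 0.05, and DPC's share of all calls from 39.1% to 48.8% and 53.8%. Relative to the median of all genes, the members' median stood at 0.29, and at 0.30 and 0.33 under those rescalings. Across the 14 alternatives tried, 35 members stayed higher in DPC and 13 stayed higher in HMC in every alternative that tested them, and no called member passed in the opposite direction.

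**Figure D1:**
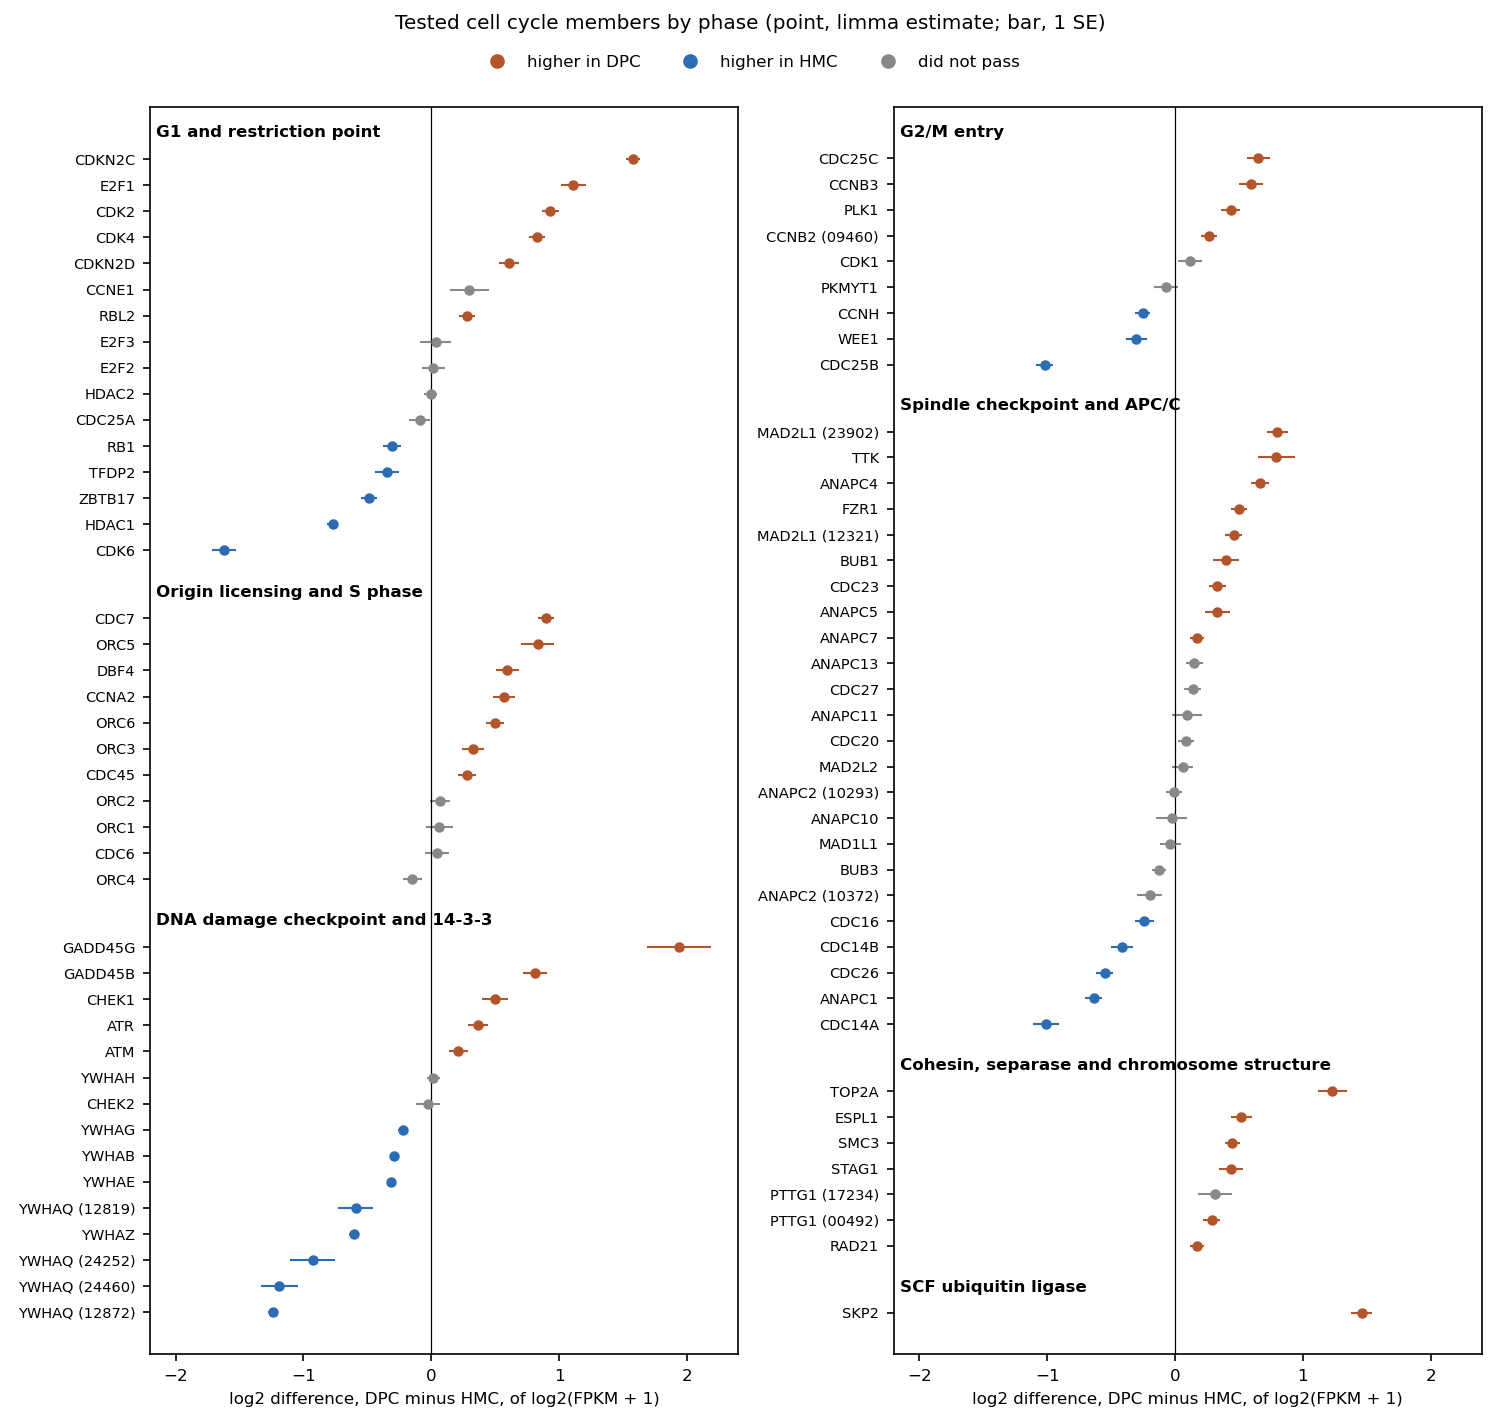
Log2 difference (DPC minus HMC, of log2(FPKM + 1)) of each of the 83 tested members, grouped by phase, with points for the limma estimate and bars for 1 SE. The 38 members higher in DPC lie right of 0, the 21 higher in HMC lie left of it, and grey points did not pass; digits beside repeated symbols are the last digits of the gene identifier. Under quantile normalization the small differences of CDC16 and YWHAG changed sign without passing.

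Under the deposited scaling the groups of members by phase did not share a direction. Origin licensing and S phase (7 of 11 higher in DPC, 0 higher in HMC) and cohesin with chromosome structure (6 of 7 higher in DPC, 0 higher in HMC) leaned to DPC. The 14-3-3 rows leaned to HMC, with 0 higher in DPC and 8 of 9 higher in HMC, but 4 of these 9 rows are YWHAQ rows that may share reads. G1 control (6 higher in DPC, 5 higher in HMC, 5 not passed), G2/M entry (4, 3 and 2) and the spindle checkpoint with the APC/C (9, 5 and 10) were mixed as deposited. After either rescaling these counts leaned to DPC, at 8, 3 and 5 for G1 control and 5, 1 and 3 for G2/M entry. The spindle group stood at 12, 4 and 8 after median-of-ratios rescaling and at 16, 4 and 4 after quantile normalization. Leaving the 14-3-3 genes out, DPC was higher for 38 of 74 tested members and HMC for 13, with a median of 0.24. The summed level of those 74 members was 1825, 1751 and 1780.5 FPKM in DPC replicates 1 to 3, against 1408, 1465 and 1556 FPKM in HMC replicates 1 to 3, so every DPC library lay above every HMC library. Abundant members weigh most in this sum. CDK4 averaged 153 FPKM in DPC and 86.0 in HMC, and the MAD2L1 rows, which may share reads, 177 and 109 in DPC and 102 and 78.9 in HMC. HDAC1 went the other way, at 38.0 and 65.6 FPKM. With the abundant 14-3-3 genes included the order of the sums was the opposite: all members summed to 3502, 3398 and 3478 FPKM in DPC replicates 1 to 3, against 3544, 3669 and 3797 FPKM in HMC replicates 1 to 3. The FPKM of all genes also summed to less in DPC (553559, 548897 and 554803) than in HMC (651773, 649074 and 647963). As a share of that total, all members held 0.633%, 0.619% and 0.627% in DPC and 0.544%, 0.565% and 0.586% in HMC. By share, every DPC library thus lay above every HMC library.

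**Figure D2:**
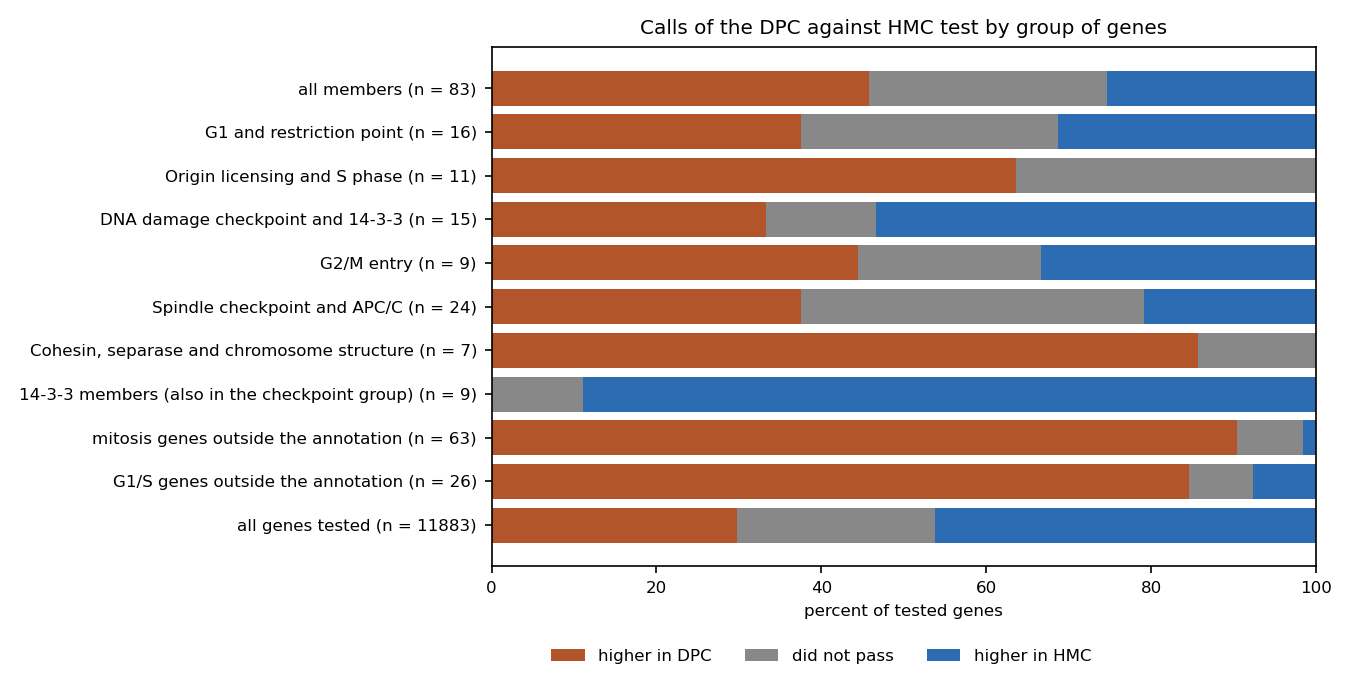
Percent of tested genes higher in DPC (left), not passed (middle) and higher in HMC (right) for the members, their phase groups, genes of mitosis and G1/S outside the annotation, and all genes tested. The cohesin group reaches 85.7% higher in DPC and the 14-3-3 group 88.9% higher in HMC, against 29.7% and 46.2% of all genes tested. The 14-3-3 group counts 9 rows, of which 4 are YWHAQ rows that may share reads. After quantile normalization its HMC calls were 5 of 9, namely YWHAZ and the 4 YWHAQ rows.

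In G1, the kinases that phosphorylate RB1 differed in opposite directions. CDK4, which pairs with D-type cyclins, was the most abundant G1 member, at 163, 143 and 154 FPKM in DPC and 82.6, 84.0 and 91.5 FPKM in HMC. Every DPC library lay above every HMC library, and the log2 difference was 0.82 (SE 0.06, adjusted p = 3.87e-06). CDK6, which pairs with the same cyclins, held 15.5, 13.6 and 11.7 FPKM in DPC and 44.9, 43.7 and 42.3 FPKM in HMC. Its log2 difference of -1.62 (SE 0.09, adjusted p = 8.39e-07) was the lowest of the tested members, and the groups again did not overlap. Within each library CDK4 thus exceeded CDK6 by 10.5, 10.5 and 13.2 times in DPC and by 1.84, 1.92 and 2.16 times in HMC. That ratio does not depend on library scaling, and it follows from the opposite directions of the pair, so it was not tested. The CDK6 row and the CDKN2C row below both carry the older symbol CDKN6, and only their pathway annotation told them apart.

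CDKN2C (p18), an inhibitor that binds CDK4 and CDK6, stood higher where CDK4 did. Its FPKM were 19.4, 19.4 and 19.1 in DPC and 5.96, 5.84 and 5.65 in HMC, with a log2 difference of 1.57 (SE 0.06, adjusted p = 4.50e-08). The related inhibitor CDKN2D (p19) was also higher in DPC, at 24.0 ± 1.2 FPKM in DPC against 15.4 ± 1.44 FPKM in HMC (SD, n = 3 each) and a log2 difference of 0.61. CDKN1C (p57), an inhibitor from another family, was not tested for its low level: it held 0.495, 0.316 and 0.499 FPKM in DPC and 0.121, 0 and 0 FPKM in HMC.

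CDK2, which acts with cyclins E and A in late G1 and S phase, held 32.8, 32.1 and 32.5 FPKM in DPC and 15.1, 17.6 and 17.1 FPKM in HMC (log2 difference 0.93, SE 0.07, adjusted p = 3.15e-06). Its G1 partner cyclin E1 (CCNE1) held 10.6, 9.56 and 12.6 FPKM in DPC and 6.73, 10.1 and 9.41 FPKM in HMC. Those libraries overlapped, and CCNE1 did not pass as deposited (log2 difference 0.30, SE 0.15, adjusted p = 0.104) but passed after both rescalings (0.44 and 0.47). CDC25A, a phosphatase that activates CDK2, also did not pass, at 8.83 ± 0.453 FPKM in the DPC libraries and 9.48 ± 0.886 in the HMC libraries (SD, n = 3 each).

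Of the E2F factors that drive S phase genes, E2F1 alone passed among the 3 members. E2F1 held 31.3, 31.6 and 32.9 FPKM in DPC and 12.8, 13.4 and 16.9 FPKM in HMC, so the DPC libraries all lay above the HMC libraries, and its log2 difference was 1.11 (SE 0.10, adjusted p = 1.25e-05). E2F2 held 2.66 ± 0.284 FPKM in the DPC libraries and 2.62 ± 0.139 in the HMC libraries, and E2F3 held 2.46 ± 0.448 FPKM in the DPC libraries and 2.37 ± 0.319 in the HMC libraries (SD, n = 3 each). The log2 differences of E2F2 and E2F3 were 0.02 (95% interval -0.19 to 0.22) and 0.03 (-0.25 to 0.31).

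RB1 and the genes that act with it were split. RB1, the retinoblastoma protein, held 8.94, 8.56 and 9.70 FPKM in DPC and 11.1, 12.1 and 11.1 FPKM in HMC. Its log2 difference was -0.31 (SE 0.07, adjusted p = 0.00446) as deposited, and it did not pass after median-of-ratios rescaling (-0.16) or quantile normalization (-0.14). HDAC1, a histone deacetylase that RB1 recruits, was higher in HMC, with 38.0 ± 1.04 FPKM in the DPC libraries and 65.6 ± 0.549 in the HMC libraries (log2 difference -0.77). HDAC2, its close relative, held 50.2 ± 0.498 FPKM in the DPC libraries and 50.4 ± 2.83 in the HMC libraries and did not pass as deposited, though it passed as higher in DPC after both rescalings. RBL2 (p130), an RB1 relative of resting cells, was higher in DPC with a log2 difference of 0.28. The E2F dimer partner TFDP2 (-0.35) and the MYC-associated factor ZBTB17 (-0.49) were higher in HMC, and TFDP2 did not pass after either rescaling.

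SKP2, the subunit by which the SCF ubiquitin ligase recognises the CDK inhibitor p27, separated the groups widely. Its level was 21.7, 23.9 and 21.2 FPKM in DPC and 6.73, 7.47 and 8.21 FPKM in HMC. The lowest DPC library held more than any HMC library, and the log2 difference was 1.46 (SE 0.08, adjusted p = 7.73e-07).

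In the group of origin licensing and S phase, the kinase that fires origins and the S phase cyclin were higher in DPC. CDC7, the catalytic subunit, held 13.98, 13.8 and 13.6 FPKM in DPC and 6.59, 7.03 and 7.27 FPKM in HMC (log2 difference 0.89, SE 0.06, adjusted p = 2.91e-06). Its activator DBF4 held 14.2, 11.1 and 12.2 FPKM in DPC and 7.71, 8.17 and 7.86 FPKM in HMC (0.59, SE 0.09, adjusted p = 0.000388). Neither gene's groups overlapped. Cyclin A2 (CCNA2) was the most abundant gene of this group, at 83.2, 81.1 and 76.5 FPKM in DPC and 47.8, 52.6 and 61.8 FPKM in HMC. Its log2 difference was 0.57 (SE 0.09, adjusted p = 0.000462), and HMC replicate 3 lay nearest to DPC. CDC45, part of the replicative helicase, was higher in DPC by 0.28.

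Among the factors that load the helicase, 3 passed as higher in DPC and the others did not pass. CDC6, which loads the helicase onto origins, held 4.92, 4.75 and 4.76 FPKM in DPC and 4.20, 4.41 and 5.36 FPKM in HMC, and ORC1, the largest subunit of the origin recognition complex (ORC), held 6.51, 8.12 and 6.95 FPKM in DPC and 5.98, 7.03 and 7.57 FPKM in HMC. For both the libraries overlapped and the test was not passed, with 95% intervals of the log2 difference of -0.17 to 0.26 for CDC6 and -0.18 to 0.30 for ORC1. Against 29.7% and 46.2% of all genes tested, 3 of the 6 ORC subunits were higher in DPC and 0 were higher in HMC. After either rescaling 4 of the ORC subunits were higher in DPC. ORC5 had the largest difference of them, at 9.15, 9.68 and 11.8 FPKM in DPC and 4.64, 4.89 and 6.41 FPKM in HMC (log2 difference 0.83, SE 0.13, adjusted p = 0.000438). ORC6 (0.50) and ORC3 (0.33) were also higher in DPC, and ORC2 (0.07) and ORC4 (-0.15) did not pass as deposited. The germline cyclin CCNA1 was not tested, with mean levels of 0.0462 FPKM in DPC libraries and 0.0769 FPKM in HMC libraries.

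The DNA damage checkpoint members other than 14-3-3 genes were higher in DPC in 5 of 6 cases, with 0 higher in HMC and a median of 0.43. Among all genes tested, 29.7% were higher in DPC and 46.2% in HMC. GADD45G, a stress-induced protein that can inhibit CDK1, held 19.1, 11.7 and 14.1 FPKM in DPC and 1.98, 4.81 and 2.99 FPKM in HMC. The lowest DPC library held more than the highest HMC library, and the log2 difference of 1.93 (SE 0.25, adjusted p = 0.000149) was the highest of the tested members, with the widest error. Its relative GADD45B held 6.66 ± 0.694 FPKM in the DPC libraries and 3.37 ± 0.293 in the HMC libraries (SD, n = 3 each; log2 difference 0.81).

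The checkpoint kinases differed by less. CHEK1, which restrains CDC25 phosphatases during S phase, held 10.9, 11.5 and 10.1 FPKM in DPC and 6.66, 6.89 and 8.75 FPKM in HMC (log2 difference 0.50, SE 0.10, adjusted p = 0.00243). ATR, the kinase that activates CHEK1 at stalled forks, held 5.71, 5.35 and 4.91 FPKM in DPC and 4.07, 3.69 and 3.96 FPKM in HMC (0.36, SE 0.08, adjusted p = 0.00318). ATM, the kinase of double-strand breaks, held 3.27, 3.26 and 3.13 FPKM in DPC and 2.67, 2.63 and 2.63 FPKM in HMC. ATM passed as deposited (0.21, SE 0.07, adjusted p = 0.0253), but did not pass when DPC replicate 1, DPC replicate 2, HMC replicate 2 or HMC replicate 3 was left out, with log2 differences of 0.20, 0.21, 0.21 and 0.21. CHEK2, the kinase downstream of ATM, held 4.17, 3.56 and 4.58 FPKM in DPC and 3.99, 4.14 and 4.44 FPKM in HMC, overlapped between the groups and did not pass.

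The 14-3-3 proteins bind phosphorylated proteins, among them CDC25 phosphatases, which they hold outside the nucleus. Their genes were the most abundant members, and 8 of their 9 rows were higher in HMC, with a median of -0.59. Of the 9 rows, 4 are YWHAQ rows that may share reads, and the median is the value of a low one of them (ENSBGRG00000012819). After median-of-ratios rescaling 7 of the 9 rows were higher in HMC, and after quantile normalization 5 were, namely YWHAZ and the 4 YWHAQ rows. Under quantile normalization YWHAG (0.03) was no longer below 0, and YWHAH passed as higher in DPC after both rescalings. YWHAE was the most abundant of all members at 379, 381 and 390 FPKM in DPC and 466, 469 and 494 FPKM in HMC (log2 difference -0.31, SE 0.03, adjusted p = 4.87e-05). Quantile normalization took it out of the calls (-0.04).

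The largest 14-3-3 difference was that of the main YWHAQ row (ENSBGRG00000012872). It held 116, 111 and 115 FPKM in DPC and 268, 276 and 269 FPKM in HMC (-1.24, SE 0.04, adjusted p = 1.19e-08), and no library of either group came near the other. The table has 3 further YWHAQ rows with low levels, whose values are uncertain because near-identical copies may share reads. The highest of the 3, ENSBGRG00000024460, held 4.81, 4.61 and 6.74 FPKM in DPC and 11.4, 14.4 and 14.7 FPKM in HMC (-1.19, SE 0.14, adjusted p = 9.37e-05), and the other 2 differed by -0.93 and -0.59. YWHAZ (-0.60), YWHAB (-0.29) and YWHAG (-0.22) were also higher in HMC as deposited. YWHAH, at 288 ± 7.49 FPKM in the DPC libraries and 285 ± 18.0 in the HMC libraries (SD, n = 3 each), did not pass.

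**Figure D3:**
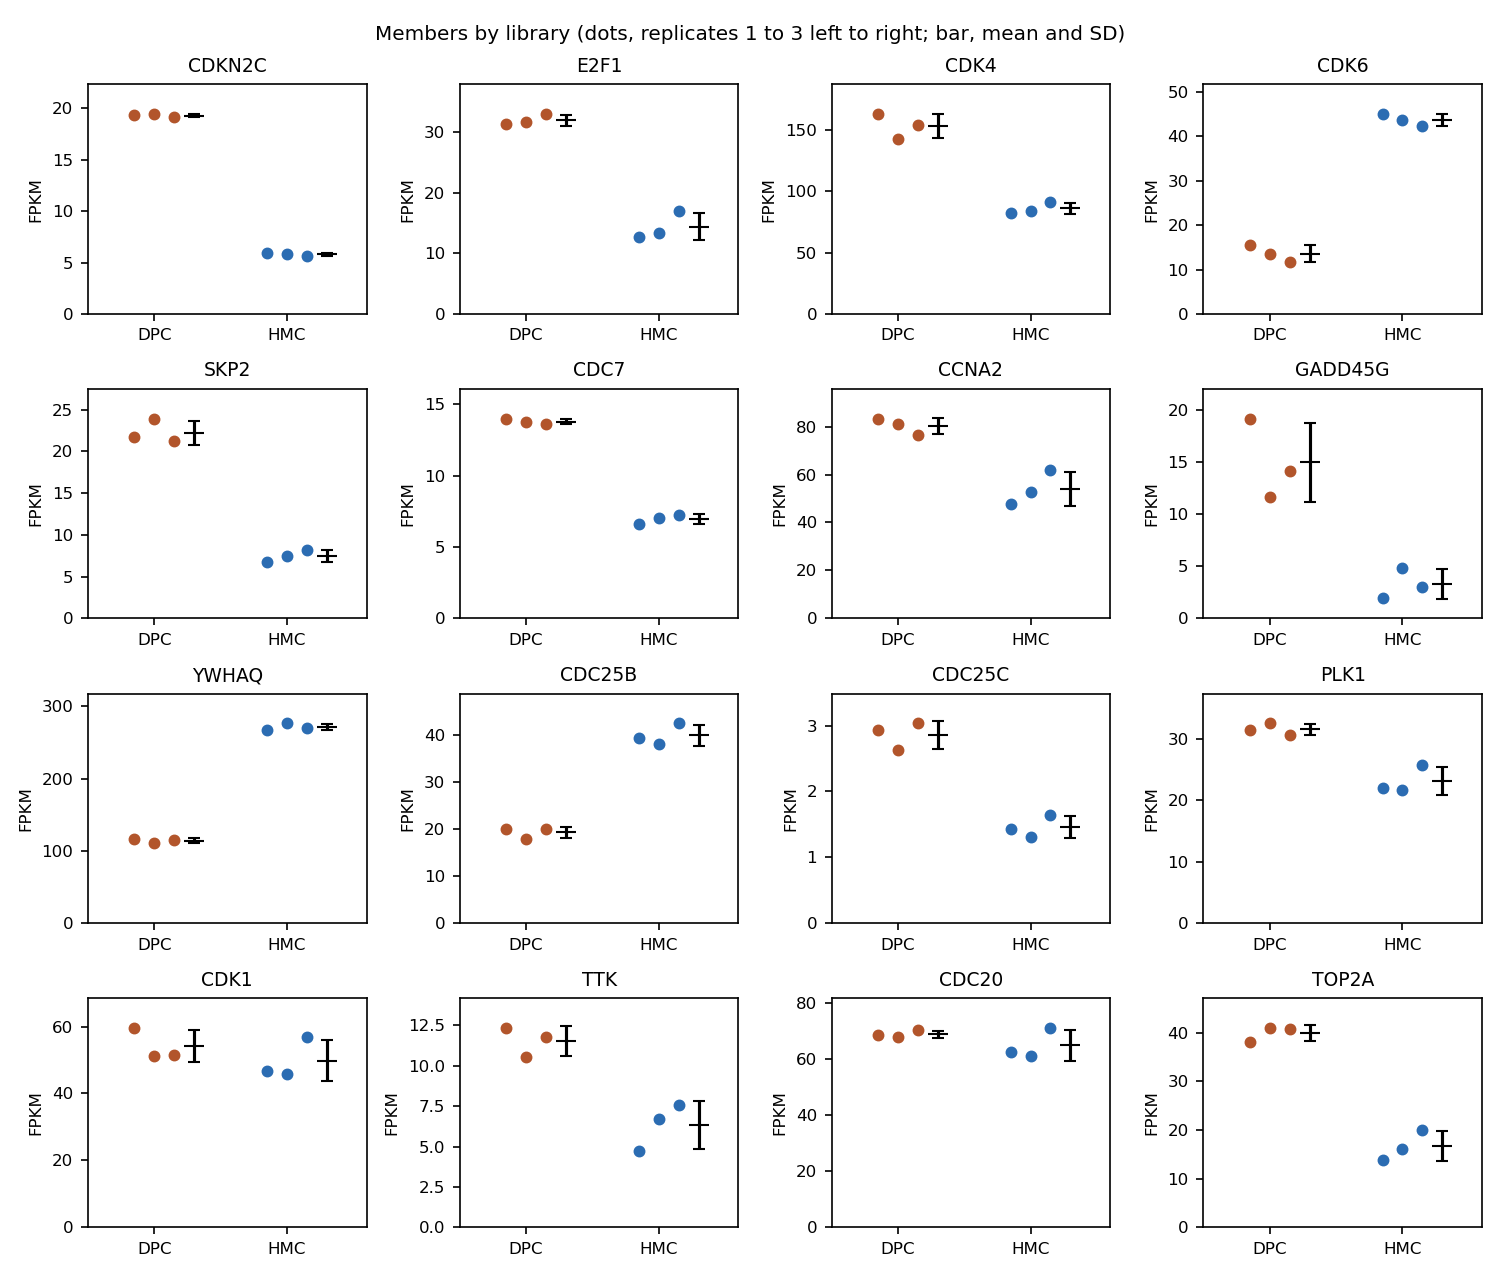
FPKM of 16 members in each library, with DPC left of HMC in each panel, dots for replicates 1 to 3 and a bar for the mean and SD; each vertical axis starts at 0. CDKN2C, E2F1, CDK4, SKP2, GADD45G and TOP2A lie higher in all DPC libraries, CDK6, CDC25B and YWHAQ (row ENSBGRG00000012872) lie higher in all HMC libraries, and CDK1 and CDC20 overlap, with HMC replicate 3 the highest of its group.

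At the entry into mitosis, the CDC25 phosphatases that remove inhibitory phosphates from CDKs went opposite ways. CDC25B held 19.9, 17.8 and 19.9 FPKM in DPC and 39.4, 38.0 and 42.4 FPKM in HMC (log2 difference -1.02, SE 0.07, adjusted p = 1.96e-06). CDC25C, at a much lower level, held 2.93, 2.62 and 3.03 FPKM in DPC and 1.43, 1.31 and 1.64 FPKM in HMC (0.65, SE 0.09, adjusted p = 0.000228). Within a library CDC25B exceeded CDC25C by 6.80, 6.77 and 6.57 times in DPC and by 27.5, 29.1 and 25.8 times in HMC, which again follows from their opposite directions and was not tested.

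CDK1 itself was close between the groups. Its level was 59.6, 51.0 and 51.6 FPKM in DPC and 46.7, 45.9 and 56.7 FPKM in HMC, so HMC replicate 3 lay among the DPC libraries. The log2 difference was 0.12 (95% interval -0.10 to 0.34, adjusted p = 0.273). CDK1 passed as higher in DPC without HMC replicate 3 (0.22, adjusted p = 0.035) and under median-of-ratios rescaling (0.27) and quantile normalization (0.41).

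Of the other G2/M members, the kinase PLK1, which promotes mitotic entry and spindle assembly, held 31.6, 32.6 and 30.7 FPKM in DPC and 21.97, 21.7 and 25.9 FPKM in HMC (0.43, SE 0.07, adjusted p = 0.000765). Cyclin B2 (CCNB2), a partner of CDK1, held 17.1, 17.3 and 17.9 FPKM in DPC and 13.4, 14.7 and 14.96 FPKM in HMC (0.27, SE 0.06, adjusted p = 0.00439). A second CCNB2 row was listed at 0 in 5 of the 6 libraries and was not tested. The more distant cyclin B3 (CCNB3) held 2.84, 2.73 and 2.22 FPKM in DPC and 1.28, 1.43 and 1.41 FPKM in HMC (0.60, SE 0.09, adjusted p = 0.000533). All 3 of these genes had every DPC library above every HMC library.

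The kinases that place the inhibitory phosphates on CDK1 were not higher in DPC under the deposited scaling. WEE1 held 12.1, 11.9 and 12.96 FPKM in DPC and 14.02, 17.1 and 15.2 FPKM in HMC, with a log2 difference of -0.30 (SE 0.08, adjusted p = 0.00917) that did not pass after median-of-ratios rescaling (-0.16) or quantile normalization (-0.10). PKMYT1 held 9.74, 8.79 and 11.4 FPKM in DPC and 10.1, 10.3 and 11.1 FPKM in HMC and did not pass (95% interval -0.29 to 0.14). Cyclin H (CCNH), part of the kinase that activates CDKs, was higher in HMC as deposited (-0.25) and did not pass after either rescaling.

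The spindle checkpoint kinases and the checkpoint protein MAD2L1 were higher in DPC. TTK, the kinase that starts the checkpoint at unattached kinetochores, held 12.3, 10.5 and 11.8 FPKM in DPC and 4.71, 6.70 and 7.59 FPKM in HMC (0.79, SE 0.15, adjusted p = 0.00124). BUB1, a kinase recruited to kinetochores after TTK has acted, held 15.4, 17.7 and 16.8 FPKM in DPC and 10.6, 13.1 and 13.7 FPKM in HMC (0.40, SE 0.10, adjusted p = 0.00687). The groups did not overlap for either kinase.

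MAD2L1, which binds CDC20 and holds the APC/C inactive, is present in the table as 2 rows that may share reads. The row ENSBGRG00000023902 was the most abundant of the spindle group, at 169.5, 171.9 and 190.8 FPKM in DPC and 89.9, 104 and 111 FPKM in HMC (0.80, SE 0.08, adjusted p = 3.37e-05). The row ENSBGRG00000012321 held 114, 104.8 and 107.6 FPKM in DPC and 75.7, 74.1 and 87.0 FPKM in HMC (0.46, SE 0.07, adjusted p = 0.00031). Other checkpoint members, MAD1L1, MAD2L2 and BUB3, did not pass as deposited. BUB3, which brings BUB1 to kinetochores, held 42.5, 39.4 and 43.2 FPKM in DPC and 43.7, 45.7 and 47.2 FPKM in HMC, and its sign depended on scaling: the log2 difference was -0.12 (adjusted p = 0.0685) as deposited and 0.16 after quantile normalization, where it passed.

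Of the activators of the APC/C, FZR1 passed as higher in DPC as deposited and CDC20 did not. CDC20 held 68.6, 67.7 and 70.3 FPKM in DPC and 62.4, 61.1 and 71.1 FPKM in HMC and did not pass (0.09, 95% interval -0.06 to 0.23, adjusted p = 0.227). It passed as higher in DPC without HMC replicate 3 (0.15, adjusted p = 0.0139) and after both rescalings (0.24 and 0.38). FZR1, the activator used from late mitosis into G1, held 20.4, 20.5 and 21.5 FPKM in DPC and 15.1, 14.7 and 13.5 FPKM in HMC (0.50, SE 0.06, adjusted p = 0.000105).

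Among the 13 rows of APC/C core subunits, 4 (30.8%) were higher in DPC, 3 (23.1%) were higher in HMC and 6 did not pass as deposited. Of all genes tested, 29.7% were higher in DPC and 46.2% in HMC, so the DPC share was near that background. The split became 6, 2 and 5 under median-of-ratios rescaling and 8, 2 and 3 under quantile normalization. The subunits higher in DPC were ANAPC4 (0.66), CDC23 (0.33), ANAPC5 (0.33) and ANAPC7 (0.17), and those higher in HMC were ANAPC1 (-0.64), CDC26 (-0.55) and CDC16 (-0.24), the last of which did not pass after either rescaling and had a log2 difference of 0.03 after quantile normalization. ANAPC7 did not pass without DPC replicate 1 (0.17), DPC replicate 2 (0.14) or HMC replicate 2 (0.18), and CDC16 did not pass without DPC replicate 2 (-0.20). ANAPC1, the scaffold of the complex, held 8.24 ± 0.180 FPKM in the DPC libraries and 13.4 ± 0.789 in the HMC libraries (SD, n = 3 each), whereas ANAPC4 held 20.2 ± 0.702 FPKM in the DPC libraries and 12.4 ± 0.936 in the HMC libraries. The subunits ANAPC10, ANAPC11, ANAPC13, CDC27 and the pair of rows named ANAPC2 did not pass as deposited.

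CDC14A and CDC14B, phosphatases that reverse CDK phosphorylation (mitotic exit factors in yeast), were both higher in HMC. CDC14A held 0.577, 0.653 and 0.677 FPKM in DPC and 2.60, 2.36 and 1.95 FPKM in HMC (-1.01, SE 0.10, adjusted p = 2.71e-05). Its low level means that the log2 scale understates a ratio of group means of 3.62 (HMC over DPC). CDC14B held 6.16 ± 0.649 FPKM in the DPC libraries and 8.51 ± 0.342 in the HMC libraries (SD, n = 3 each; -0.41).

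The genes that hold, cut and untangle sister chromosomes were higher in DPC in 6 of 7 tested cases, with 0 higher in HMC and a median of 0.44, and all 7 passed as higher in DPC after either rescaling. TOP2A had the largest difference, at 38.1, 41.0 and 40.8 FPKM in DPC and 13.9, 16.1 and 19.9 FPKM in HMC (1.23, SE 0.11, adjusted p = 1.84e-05). Its groups did not overlap. Relative to CDK1, TOP2A stood at 0.639, 0.803 and 0.790 in DPC libraries and at 0.297, 0.350 and 0.351 in HMC libraries.

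Separase (ESPL1), the protease that cuts cohesin at anaphase, held 16.0, 15.7 and 14.9 FPKM in DPC and 9.36, 10.8 and 11.6 FPKM in HMC (0.52, SE 0.08, adjusted p = 0.000533). Securin (PTTG1), its inhibitor, has 2 rows that may share reads. The row ENSBGRG00000000492 held 20.9, 23.4 and 21.8 FPKM in DPC and 17.3, 17.4 and 19.0 FPKM in HMC (0.29, SE 0.06, adjusted p = 0.00388). The row ENSBGRG00000017234 held 6.28, 7.04 and 7.82 FPKM in DPC and 4.32, 6.05 and 6.22 FPKM in HMC and did not pass as deposited (0.31, SE 0.13, adjusted p = 0.061).

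Of the cohesin subunits, SMC3 held 19.6, 20.4 and 20.8 FPKM in DPC and 13.98, 15.1 and 14.7 FPKM in HMC (0.45, SE 0.06, adjusted p = 0.000138). STAG1, a regulatory subunit, held 8.41 ± 0.690 FPKM in the DPC libraries and 5.95 ± 0.604 in the HMC libraries (SD, n = 3 each; 0.44). RAD21, the subunit that separase cuts, was the most abundant of this group, at 77.2, 73.3 and 77.3 FPKM in DPC and 62.7, 67.9 and 71.2 FPKM in HMC. RAD21 passed as deposited (0.17, SE 0.06, adjusted p = 0.0209) but not without DPC replicate 1 (0.16), DPC replicate 3 (0.16) or HMC replicate 1 (0.12). The meiotic cohesin SMC1B was not tested, with mean levels of 0.0337 FPKM in DPC libraries and 0.00541 FPKM in HMC libraries.

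Among the HMC libraries the members were not evenly ranked. HMC replicate 3 had the highest FPKM of the 3 HMC libraries in 48 of the 83 tested members (57.8%), against 37.1% of all genes tested. It was the HMC library nearest to DPC in 37 members (44.6%), a share near the 39.2% of all genes tested. The mean log2(FPKM + 1) of the cohesin group was 4.37, 4.43 and 4.41 in DPC and 3.77, 3.95 and 4.03 in HMC. For origin licensing and S phase it was 3.85, 3.82 and 3.85 in DPC and 3.37, 3.49 and 3.57 in HMC, and for G2/M entry it was 3.78, 3.71 and 3.76 in DPC and 3.64, 3.68 and 3.78 in HMC. The first 2 of these groups separated the cell types in every library, and the G2/M group overlapped. G1 control also separated them, at 4.135, 4.048 and 4.089 in DPC and 3.926, 3.981 and 3.982 in HMC. The spindle group did so narrowly, at 4.251, 4.211 and 4.215 in DPC and 4.093, 4.161 and 4.207 in HMC. HMC replicate 3 was also the HMC library with the highest summed papilla markers, at 4.74% of the DPC mean, and the part of this in the members' values was not tested.

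**Figure D4:**
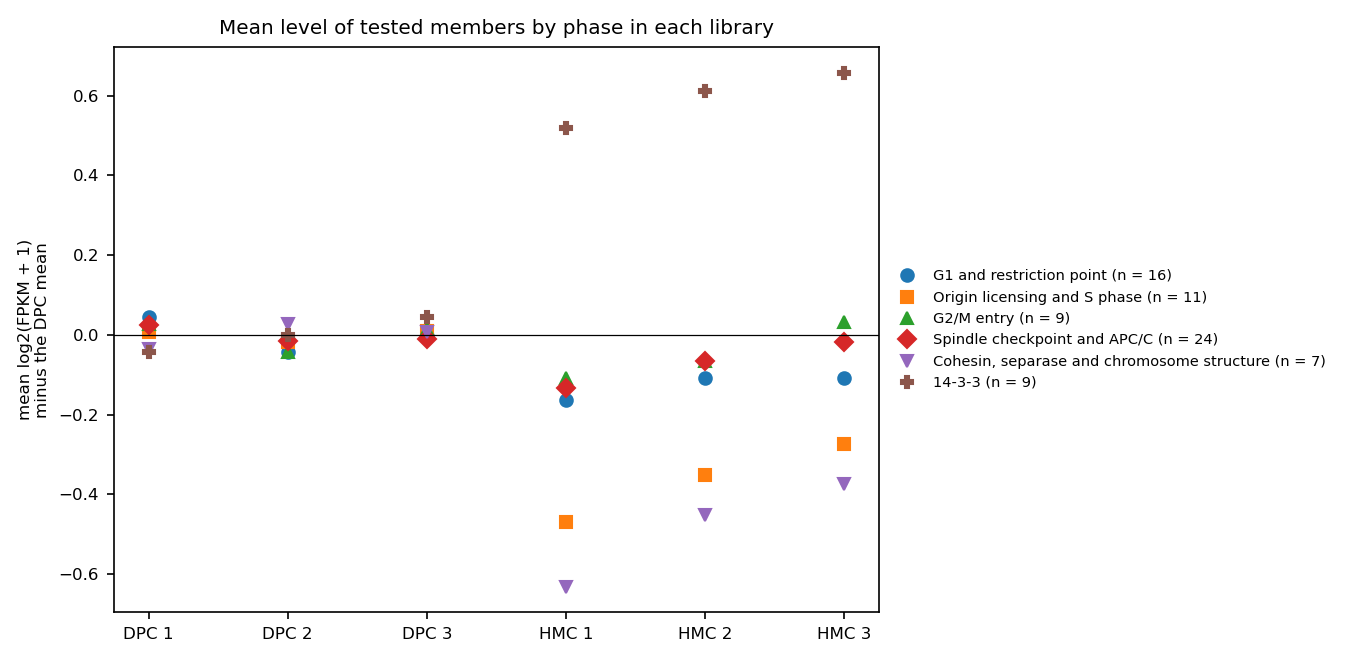
Mean log2(FPKM + 1) of the tested members of each phase group in each library, minus the mean over the 3 DPC libraries (dimensionless log2 units). Origin licensing and S phase and cohesin lie below 0 in all HMC libraries, and 14-3-3 lies above 0 in all of them. G1, G2/M entry and the spindle group lie nearer to 0. Of these, G1 and the spindle group still have every DPC library above every HMC library, and G2/M entry overlaps. After quantile normalization 5 of the 9 tested 14-3-3 rows passed as higher in HMC, namely YWHAZ and the 4 YWHAQ rows, which may share reads.

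Genes of cell division that the pathway annotation does not hold were mostly higher in DPC. Of 113 genes listed by their known roles in mitosis, in G1/S or in the FOXM1 and DREAM complexes that control mitotic genes, 96 were found in the table and tested. Among 63 genes of mitosis, 57 were higher in DPC, 1 was higher in HMC and 5 did not pass, with a median log2 difference of 0.66. Among 26 genes of G1/S, 22 were higher in DPC, 2 were higher in HMC and 2 did not pass, with a median of 0.54. Among 7 genes of the FOXM1 and DREAM list, 5 were higher in DPC, 0 were higher in HMC and 2 did not pass, with a median of 0.61. These counts are set against the same 29.7% and 46.2% of all genes tested, and the lists were not tested as sets. The lists were chosen with earlier results of these data known.

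The largest difference among them was that of PBK, a mitotic kinase, at 49.3, 55.6 and 53.3 FPKM in DPC and 18.0, 14.03 and 18.0 FPKM in HMC (1.61, SE 0.10, adjusted p = 1.20e-06). UHRF1, which keeps DNA methylation through S phase, held 32.0, 31.1 and 37.1 FPKM in DPC and 11.1, 11.7 and 13.6 FPKM in HMC (1.39, SE 0.09, adjusted p = 2.09e-06). In the other direction, TK1, the thymidine kinase of S phase, held 55.1, 54.6 and 57.8 FPKM in DPC and 71.0, 74.2 and 76.2 FPKM in HMC (-0.40, SE 0.05, adjusted p = 8.14e-05). None of these genes had overlapping groups.

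As deposited, the factors that switch on mitotic genes also differed from each other. FOXM1 held 23.7 ± 0.597 FPKM in the DPC libraries and 9.27 ± 0.743 in the HMC libraries (SD, n = 3 each; 1.27). MYBL2, which acts with FOXM1, held 174 ± 5.78 FPKM in the DPC libraries and 178 ± 10.7 in the HMC libraries and did not pass as deposited (-0.03). After either rescaling 6 of the 7 genes of the FOXM1 and DREAM list were higher in DPC and 1 did not pass, so small differences there depend on scaling. The annotated rows that the choice of members left out, which include the replication and signalling genes, counted 14 higher in DPC, 14 higher in HMC and 7 not passed of 35, with a median of -0.01. That was 40% in each direction, against 29.7% and 46.2% of all genes tested.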

How the data were processed

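Expression was measured in 3 DPC and 3 HMC libraries. The authors deposited 1 table of FPKM values with gene symbols and pathway annotation. Per the labels' protocols, stranded mRNA libraries were made from Trizol-extracted RNA. DESeq 1.20.0, HISAT2 2.2.1.0 and Trimmomatic appear in the submitters' processing notes, with no role given. Neither counter nor build is named (not given in the sources used here), and coordinates are left out. For 100% of genes the FPKM values across libraries were whole multiples of 1 step per gene (relative tolerance 1e-09), and whole reads, known up to a common factor per gene, were recovered from them.

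The test was limma 3.58.1 (R 4.3.3), fitted to log2(FPKM + 1) using a trended prior variance and no covariate. It took in genes whose mean reached 0.5 FPKM and was two-sided, DPC minus HMC, with Benjamini-Hochberg adjustment over all 11883 genes tested. Log2 differences understate the change of low genes. The code was tested on simulated data. Python 3.11.15, numpy 2.4.6, pandas 2.3.3 and matplotlib 3.10.9 did the rest. Alternatives were a pseudocount of 0.1, no filter, a filter at 5 FPKM, median-of-ratios and quantile rescaling, no trend, a replicate block, voom on recovered reads, and each library left out.

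The members, phase groups and lists of outside genes were chosen with earlier results of these data known. The genes given library by library are, per phase, the 3 largest differences past the threshold and the most abundant member, plus a fixed set of central regulators, and the 2 largest differences each way among outside genes, of which 1 is not reported here; other members stand to account for their group, and FOXM1 and MYBL2 were named after their values were seen. Of the members, 50 carry older symbols in the table (for example CDC2 for CDK1, RBBP3 for E2F1, FBXL1 for SKP2) and were given current names by hand after the table was seen. CDKN2C and CDK6 both stand there as CDKN6 and were told apart by their pathway annotation. Altogether 12 members share a symbol with another row, so their values are uncertain. A planned search of promoter motifs was not made here.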

Additional observations from a re-analysis of the deposited data

How the results depend on the processing

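The counts of members higher in DPC (38) and higher in HMC (21) ranged from 36 to 40 and from 20 to 22 when 1 library was left out, and the members' median from 0.12 to 0.16. Quantile normalization lowered the members higher in HMC to 13. The members' median log2 difference was 0.28 under median-of-ratios rescaling and 0.38 under quantile normalization. By phase, median-of-ratios rescaling gave medians of 0.15 for G1, 0.46 for origin licensing and S phase, 0.27 for G2/M entry, 0.24 for the spindle group and 0.58 for cohesin. Quantile normalization gave 0.22 for G1, 0.48 for origin licensing and S phase, 0.41 for G2/M entry, 0.33 for the spindle group, 0.60 for cohesin and 1.64 for SKP2; it turned the median of the checkpoint and 14-3-3 group from -0.22 to 0.030 and the difference of BUB3 to 0.16. A filter at 5 FPKM moved the G1 median to 0.14 and turned that of G2/M entry from 0.12 to -0.073, with fewer genes tested. With 1 library left out, the median ranged from -0.0046 to 0.11 for G1, from 0.37 to 0.47 for cohesin, and from 0.071 to 0.13 for the spindle group.

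Replicates share numbers across the groups, and the labels do not say whether same-numbered libraries came from the same animal. Same-numbered libraries correlated at 0.023, 0.034 and 0.0064 in their deviations from the group means. Such correlations between different cell types cannot decide whether the libraries were paired. A fit with replicate number as a block called 38 members higher in DPC and 22 higher in HMC, against 38 and 21, and ATM did not pass in it. The voom fit on recovered reads called 38 and 22. Among the outside lists, 84 genes were higher in DPC, and 81 to 85 when 1 library was left out. FPKM carries no correction for RNA composition, so small differences, such as those of CDK1, CDC20, BUB3 and some 14-3-3 genes, depend on the scaling chosen.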
